A study of Homo sapiens with 6 samples.

Results

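The genes described here are those of the histones, the proteins around which DNA is wound. Members were all probe sets that the array annotation gives to a single gene whose symbol starts with H1-, H2AC, H2BC, H3C or H4C (older HIST1, HIST2 and HIST3 names included), or is H2AX, H2AZ1, H2AZ2, H3-3A, H3-3B, MACROH2A1 or MACROH2A2. This gave 56 genes on 77 probe sets, out of 19775 genes that had a single-gene probe set and 54675 probe sets in the table. Of these, 46 genes on 52 probe sets belong to the replication-dependent class and 10 genes on 25 probe sets to the variant class. H3-3B has no member probe set because the array reads it only with probe sets that the annotation gives to several genes, and 28 probe sets shared between genes that include a histone were left out.

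The series asks how treatment against VEGF, the vascular endothelial growth factor, changes gene expression in a tumour. It holds 6 Affymetrix arrays of subcutaneous U87-EV tumours, where U87 is an established human glioblastoma line and the labels do not explain EV. All tumours were grown from cells injected with Matrigel into female BALB/c SCID mice of 6 to 8 weeks, a strain that lacks functional T and B cells. The 3 control arrays come from mice given saline, and the 3 others from mice given bevacizumab, an antibody that binds human VEGF-A, injected intraperitoneally at 10 mg/kg at intervals of 3 days. Dosing began at a tumour volume of 150 to 200 mm3 and ended at a diameter of about 15 to 30 mm. Cohorts started with 5 mice per group, but nothing in the labels ties an array to its own mouse, so p-values measure only the spread between arrays, which may be technical. The tumours model a single cell line outside the brain. Among 8 listed glioma markers, OLIG2 and GFAP lay at no more than 2.30 (log2) on any array, while VIM was at 15.00 to 15.25. The others are given with the cell type markers below.

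Replication-dependent histone genes sit mostly in clusters, are transcribed in S phase and supply the bulk of H1, H2A, H2B, H3 and H4 for new chromatin. Their mRNAs normally end in a stem-loop in place of a poly(A) tail and are degraded when DNA synthesis stops, although some of these genes are known to give polyadenylated transcripts as well. Variant histones are encoded by separate genes, most but not all with only ordinary polyadenylated mRNAs. They are mostly made throughout the cell cycle and mark particular chromatin, such as promoters or DNA breaks. Because the labelling protocol of these arrays starts from an oligo(dT) primer, transcripts without a tail are read poorly or not at all, and the levels below are levels of primed RNA.

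Values are log2 expression as the authors deposited it, and differences are bevacizumab minus control on that scale. A gene was tested if its mean over the 6 arrays was at least 4. This kept 17 of the 56 histone genes, 12 replication-dependent and 5 variant. The other 39 comprised 34 replication-dependent and 5 variant genes. Among them were all 8 replication-dependent H3 genes and 8 of 9 H4 genes, besides 5 of 6 H1, 6 of 9 H2A and 7 of 14 H2B genes. On every array 36 of the 39 were under 4, and 25 were within 0.1 of the lowest value of the table, so that most histone genes gave no value that could be tested. The 3 others, H2AC4, H2AC8 and H3-3A, reached 4 on 2 arrays each.

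In the bevacizumab tumours RNA of the linker histone H1-2 and of the H2B genes H2BC9, H2BC6, H2BC12L and H2BC12 fell, while that of H2AC25 rose. The probes for H2BC9, H2BC6 and H2BC12L can bind several transcripts, so which H2B gene fell is uncertain there and these are not separate results. By limma, 5 of the 12 replication-dependent genes fell, 1 rose and 6 did not pass the adjusted threshold of 0.05. Their median log2 fold change was -0.70, with a range of -2.83 to 0.85, against a median of -0.01 over all 10233 genes tested. Of the 5 tested variants, 2 fell and 0 rose, with 3 lower and 1 higher at an unadjusted limma p under 0.05, and their median was -0.37 with a range of -0.45 to 0.65. Together 7 of 17 histone genes fell and 1 rose, where 9.97% of all tested genes fell and 9.09% rose. At an unadjusted limma p under 0.05, 18.5% of all tested genes were lower and 17.3% higher, the shares against which such counts below are to be read. The groups did not overlap for 12 of the 17, where 41.0% of all genes did not overlap. The difference between the classes was not tested, because genes of a class are not replicates and several share probes.

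**Figure D1:**
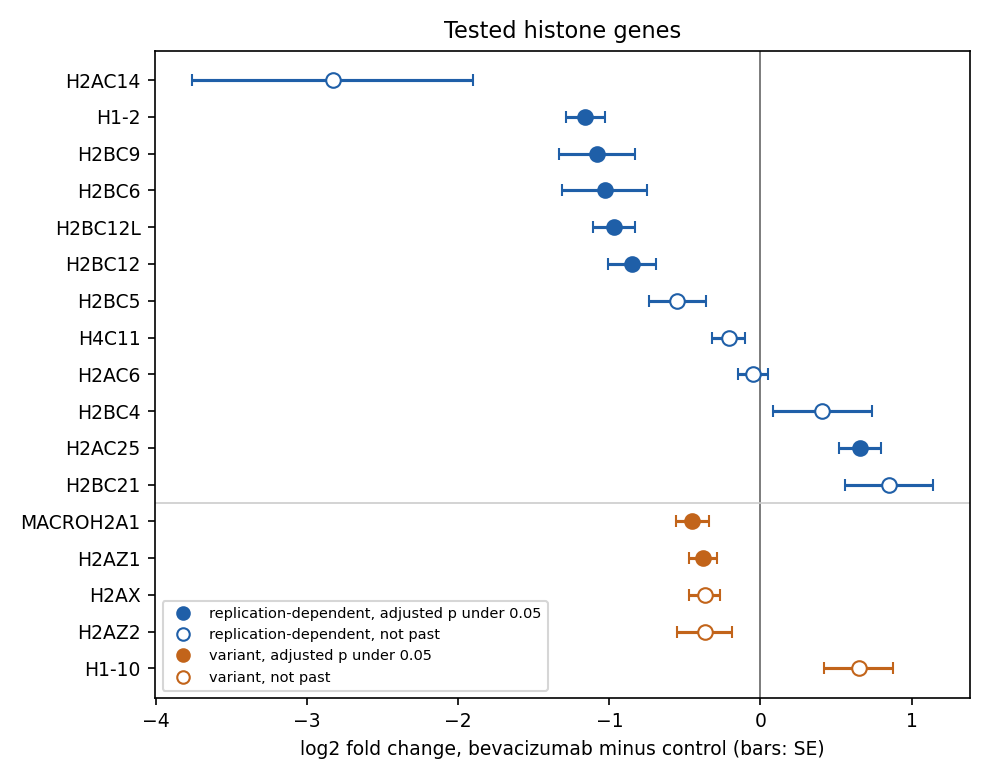
Log2 fold change (horizontal axis, bevacizumab minus control, bars are SE) of the 17 tested histone genes, replication-dependent in blue and variant in orange, with filled points past an adjusted limma p of 0.05. H1-2 and 4 H2B genes fell by 0.85 to 1.16, H2AC25 rose by 0.66, and H2AC14 has the widest error bar at an SE of 0.93.

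Over the 12 tested replication-dependent genes, the mean log2 value was 7.91, 7.62 and 7.44 on control arrays 1, 2 and 3, and 6.95, 7.0 and 7.32 on bevacizumab arrays 1, 2 and 3. Every control array was above every bevacizumab array, but control 3 exceeded bevacizumab 3 by little. Without H2AC14, on which the controls disagreed, the means were 7.60, 7.28 and 7.40 against 6.93, 6.99 and 7.28, so that control 2 and bevacizumab 3 then met. The variant mean was 11.13, 11.07 and 11.02 in the controls and 10.84, 11.00 and 10.84 with bevacizumab. In bulk tumour RNA, fewer cells in S phase and less histone RNA per cell cannot be told apart.

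A sign of RNA quality moved with the groups as well. For ACTB, the 3' probe set minus the 5' probe set gave 1.144, 1.334 and 1.659 on the control arrays and 1.937, 1.856 and 1.635 on the bevacizumab arrays. The groups overlapped, with control 3 just above bevacizumab 3. With this difference as a covariate in limma, 0 of the 17 histone genes and 24 of all genes passed, and 7 of the 17 had an unadjusted p under 0.05, where 25.8% of all genes did. The replication-dependent median was then -0.41 and the variant median -0.29. Among genes that passed without the covariate, H2BC12 moved from -0.85 to -0.45 (limma adjusted p = 0.181), H2BC9 from -1.08 to -0.67 (0.321) and H2BC6 from -1.03 to -0.63 (0.399), while H1-2 was at -0.97 (0.0814) and H2BC12L at -0.75 (0.113). H2AC25 was at 0.75 (0.136), MACROH2A1 at -0.58 (0.116) and H2AZ1 at -0.29 (0.271). The corresponding GAPDH difference was -0.105, -0.108 and -0.136 on the control arrays and -0.059, -0.011 and 0.007 on the bevacizumab arrays. It was smaller in size than that of ACTB, but its groups did not overlap and it was higher with bevacizumab too.

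The start regions of a few of these genes show what the classes share in sequence. Of the 56 members, 50 matched a promoter in the RefSeq table of build GRCh38.p14, each 250 bases before to 50 after the start. Motifs were searched on both strands as CCAAT with its reverse complement ATTGG for the CCAAT box, as TATAAA with its reverse complement TTTATA for a TATA box, and as ATTTGCAT with its reverse complement ATGCAAAT for the octamer, an element known from H2B promoters. The regions below are of H1-2, H2BC12 and H2BC9, which fell, of H2AC25, which rose, and of the variant H2AZ1, which fell, with the motifs in capitals and each written 5′ to 3′ on the gene's own strand.
H1-2, chr6:26056421-26056720, minus strand: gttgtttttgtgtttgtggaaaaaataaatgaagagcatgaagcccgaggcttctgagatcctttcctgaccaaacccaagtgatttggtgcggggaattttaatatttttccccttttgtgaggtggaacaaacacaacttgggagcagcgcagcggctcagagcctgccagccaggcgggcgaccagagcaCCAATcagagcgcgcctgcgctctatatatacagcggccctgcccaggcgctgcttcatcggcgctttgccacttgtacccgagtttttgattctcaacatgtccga
H2BC12, chr6:27146809-27147108, minus strand: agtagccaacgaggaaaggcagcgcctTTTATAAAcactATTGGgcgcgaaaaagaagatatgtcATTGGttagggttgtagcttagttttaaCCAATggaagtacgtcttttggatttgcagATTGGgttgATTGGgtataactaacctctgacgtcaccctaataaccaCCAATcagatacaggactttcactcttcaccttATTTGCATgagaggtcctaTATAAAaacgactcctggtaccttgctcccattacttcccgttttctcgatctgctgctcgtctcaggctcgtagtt
H2BC9, chr6:26251364-26251663, plus strand: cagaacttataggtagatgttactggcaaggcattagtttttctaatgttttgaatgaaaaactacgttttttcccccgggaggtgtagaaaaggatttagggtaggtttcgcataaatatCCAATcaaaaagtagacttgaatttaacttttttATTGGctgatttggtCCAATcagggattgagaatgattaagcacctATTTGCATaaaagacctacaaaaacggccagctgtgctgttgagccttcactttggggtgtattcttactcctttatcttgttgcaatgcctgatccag
H2AC25, chr1:228457824-228458123, minus strand: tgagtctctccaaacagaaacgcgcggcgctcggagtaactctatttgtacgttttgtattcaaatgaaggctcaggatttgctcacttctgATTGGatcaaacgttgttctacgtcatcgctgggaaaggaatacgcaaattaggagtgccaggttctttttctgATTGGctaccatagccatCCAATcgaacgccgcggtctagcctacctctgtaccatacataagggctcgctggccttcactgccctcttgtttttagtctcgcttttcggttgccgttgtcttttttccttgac
H2AZ1, chr4:99950226-99950525, minus strand: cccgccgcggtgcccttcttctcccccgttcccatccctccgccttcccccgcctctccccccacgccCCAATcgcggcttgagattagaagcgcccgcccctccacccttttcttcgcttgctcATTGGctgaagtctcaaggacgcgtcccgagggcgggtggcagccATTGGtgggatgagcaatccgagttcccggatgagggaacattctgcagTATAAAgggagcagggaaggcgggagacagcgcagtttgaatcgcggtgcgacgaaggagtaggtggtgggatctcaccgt

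H2BC12 carried 6 CCAAT boxes, 3 TATA boxes (1 pair overlapping) and 1 octamer in these 300 bases. H2BC9 carried 3 CCAAT boxes and the octamer, and H1-2 a single CCAAT box. Only the exact letters given above were searched, so the stretch tatatata in H1-2 was not counted. H2AC25 held 3 CCAAT boxes without the other motifs, and H2AZ1 held 3 CCAAT boxes and 1 TATA box. A CCAAT box was found in 87.8% of 41 replication-dependent promoters and 66.7% of 9 variant promoters, against 35.7% of all 27305 promoters. TATAAA was in 68.3% and 33.3%, against 12% of all. The octamer was in 39.0% of the replication-dependent promoters and in 0 of 9 variant promoters, against 1.8% of all. Of the 6 tested H2B genes with a promoter in the table, 6 held a CCAAT box, 5 TATAAA and 5 the octamer, among them H2BC21 and H2BC4, which did not pass the test. A match is a description of letters and not of a bound site.

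H1-2, a linker histone that binds where DNA enters and leaves the nucleosome, was the only tested H1 gene of the replication-dependent class. Its log2 value was 8.63, 8.44 and 8.55 on control arrays 1, 2 and 3 and 7.28, 7.24 and 7.64 on bevacizumab arrays 1, 2 and 3. All 3 treated arrays were below all controls. The means were 8.54 ± 0.09 and 7.39 ± 0.22 (SD, n = 3 each), which is 2.23-fold lower or -1.16 on the log2 scale (SE 0.13, limma adjusted p = 0.00559). It is read by a probe set without a suffix for shared probes, and it stayed past the threshold in 6 of 6 limma fits that left out an array. The other H1 genes of this class, H1-1 and H1-3 to H1-6, were between 2.23 and 2.72 on every array.

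H2B, which pairs with H2A in the nucleosome, was the family with the most tested members. Of 7 H2B genes, 4 fell, 0 rose and 3 did not pass, with 5 lower and 1 higher at an unadjusted limma p under 0.05. The median was -0.85. H2BC12 was at 10.67, 10.46 and 10.33 in the controls and 9.42, 9.57 and 9.93 with bevacizumab. The groups did not overlap, and bevacizumab 3 was nearest to the controls. Its means of 10.49 ± 0.18 and 9.64 ± 0.26 (SD, n = 3 each) put it 1.80-fold lower, or -0.85 on the log2 scale (SE 0.16, limma adjusted p = 0.0208). The call for H2BC12 was lost without control 1 (limma adjusted p = 0.0753, log2 fold change -0.75), without control 2 (0.0733, -0.86) and without bevacizumab 2 (0.0673, -0.81), and with the ACTB covariate (0.181, -0.45). It was also lost with the titles' replicate numbers as a block (limma adjusted p = 0.0686) and with no filter on dim genes (0.0984).

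H2BC12L, a close copy of H2BC12 outside the histone clusters, was at 9.03, 8.73 and 8.76 in the controls and 7.92, 7.65 and 8.04 with bevacizumab. All treated arrays were lower, by 1.96-fold or -0.97 on the log2 scale (SE 0.14, limma adjusted p = 0.00937). It passed in 6 of 6 fits without an array, but not with no filter on dim genes (limma adjusted p = 0.0532). H2BC9 was at 7.08, 6.77 and 6.71 against 5.88, 5.25 and 6.21. Its groups did not overlap either, with bevacizumab 2 lowest, and it fell by 1.08 on the log2 scale (SE 0.25, limma adjusted p = 0.0347). H2BC6 ran in parallel at 7.43, 6.81 and 6.87 against 6.25, 5.47 and 6.30. Bevacizumab 2 was again lowest and control 1 highest, and it fell by 1.03 (SE 0.28, limma adjusted p = 0.0488), only just past the threshold.

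H2BC6 passed in none of the 6 limma fits that left out an array (adjusted p from 0.0642 to 0.142, log2 fold change from -1.18 to -0.77). H2BC9 passed without bevacizumab 2 (adjusted p = 0.0487, -0.81) and without bevacizumab 3 (0.0309, -1.29). It did not pass without control 1 (0.117, -0.97), control 2 (0.101, -1.12), control 3 (0.083, -1.15) or bevacizumab 1 (0.0629, -1.12). H2BC12L, H2BC6 and H2BC9 are each read by a probe set ending in _x_at, whose probes can bind several transcripts. Coding sequences of H2B genes are nearly identical, so which H2B gene gave these signals is uncertain, and the 3 results are not independent of each other.

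The remaining H2B genes did not pass. H2BC5 was at 7.84, 8.22 and 8.08 against 7.15, 7.81 and 7.51, a difference of -0.55 (SE 0.19, limma adjusted p = 0.0961) with groups that did not overlap. Its second probe set, at 6.91, 7.13 and 6.84 against 6.17, 5.86 and 6.34, was lower by 0.83 with an adjusted p of 0.0227 in the limma fit over every probe set, and the mean of both passed (-0.69, limma adjusted p = 0.0123). Both probe sets of H2BC5 end in _x_at, so which H2B gene they read is uncertain too. H2BC21, the only member of the HIST2 cluster, was at 5.93, 4.97 and 5.25 against 5.83, 6.53 and 6.31, and the groups overlapped because control 1 was above bevacizumab 1 (log2 fold change 0.85, SE 0.29, limma adjusted p = 0.0936). H2BC4 was at 5.02, 4.05 and 4.85 against 4.62, 4.98 and 5.56, with overlap (0.41, SE 0.33, limma adjusted p = 0.414). Values of both signs therefore occurred within the family.

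**Figure D2:**
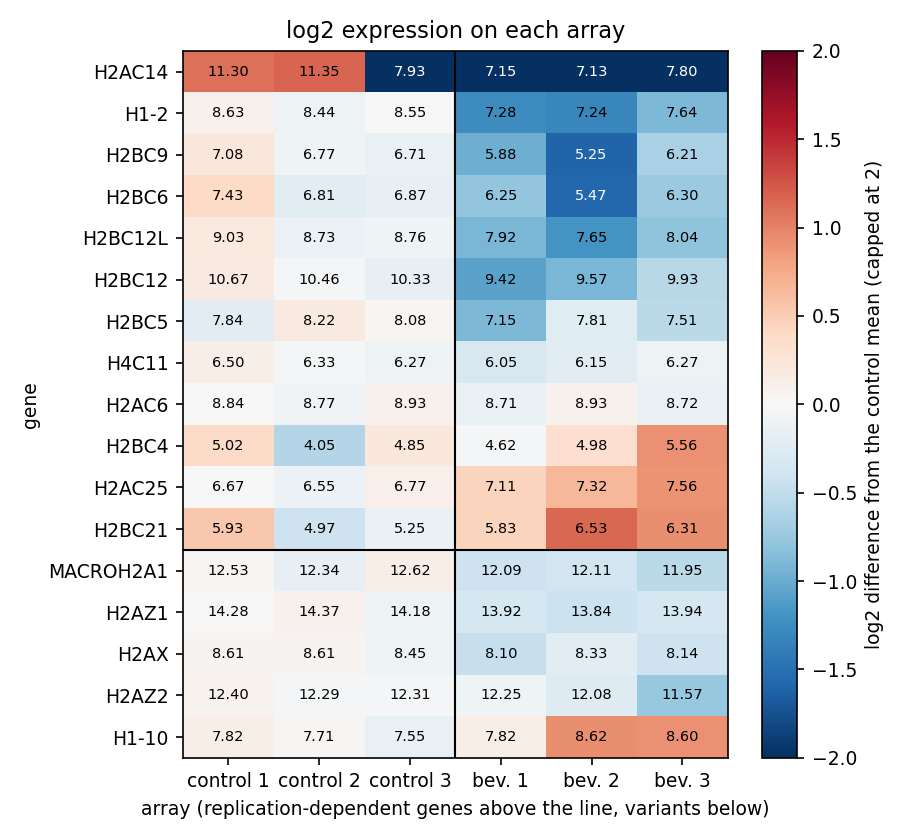
Log2 expression of the 17 tested histone genes (rows) on each array (columns), with the value printed and the colour giving the difference from the gene's control mean, capped at 2. Bevacizumab columns are blue for H1-2 and 5 H2B genes and red for H2AC25 and H2BC21, although control 1 of H2BC21 is red too. H2AC14 is high on controls 1 and 2 alone.

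Of the H2A genes of the replication-dependent class, 3 were tested, and 1 rose. H2AC25, a gene of the small HIST3 cluster, was at 6.67, 6.55 and 6.77 in the controls and 7.11, 7.32 and 7.56 with bevacizumab. All treated arrays were above all controls, with means of 6.66 ± 0.11 and 7.33 ± 0.23 (SD, n = 3 each) and a 1.58-fold higher level, or 0.66 on the log2 scale (SE 0.14, limma adjusted p = 0.0252). Its other probe set was at 2.23 on all arrays, and with the mean of both the difference was 0.33 (limma adjusted p = 0.0455). The call from the brighter probe set was lost without control 1 (limma adjusted p = 0.0841, 0.67), control 2 (0.091, 0.60), control 3 (0.0599, 0.72) or bevacizumab 2 (0.0706, 0.67). That call was also lost with the titles' replicate numbers as a block (limma adjusted p = 0.0519) and with no filter on dim genes (0.102). H2AC6, one of the genes known for polyadenylated transcripts, was at 8.84, 8.77 and 8.93 against 8.71, 8.93 and 8.72, and the groups overlapped throughout (-0.05, SE 0.10, limma adjusted p = 0.721).

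H2AC14 had the largest fold change of any member and the largest spread. It was at 11.30, 11.35 and 7.93 on the control arrays and 7.15, 7.13 and 7.80 on the bevacizumab arrays. Controls 1 and 2 were far above the rest, while control 3 exceeded bevacizumab 3 by little. The log2 fold change of -2.83 (SE 0.93) did not pass (limma adjusted p = 0.0832). Without control 3 it was -3.97 and passed (limma adjusted p = 0.0063), whereas without control 1 it was -2.28 and without control 2 -2.25. With the ACTB difference as a covariate it was -0.36 (limma adjusted p = 0.823). Its probe set also ends in _x_at.

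The same split of the controls appeared in 2 H2A genes under the filter. H2AC4 was at 4.69, 4.72 and 2.51 in the controls and 2.47, 2.51 and 2.52 with bevacizumab, and H2AC8 at 4.42, 4.42 and 2.40 against 2.29, 2.29 and 2.32. In both, control 3 lay with the treated arrays. Controls 1 and 2 were at least 1 above the 4 other arrays for 3 of 77 histone probe sets (3.90%), all 3 among the 11 replication-dependent H2A probe sets (27.3%), and for 38 of 41097 single-gene probe sets (0.0925%). This criterion was chosen after the values were seen, so these shares describe and do not test.

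The embryonic globin gene HBE1 ran the same way, at 15.90, 15.89 and 13.99 in the controls and 12.59, 13.33 and 13.61 with bevacizumab. Its log2 fold change of -2.09 (SE 0.57) did not pass (limma adjusted p = 0.052). HBB, the adult beta globin, was at 4.09, 4.59 and 3.00 against 2.92, 2.48 and 2.92. Of 15 red blood cell genes listed after the values were seen, 13 had a probe set, 11 of these were under 4 on all arrays, and 8 were within 0.1 of the lowest value on all, ALAS2 and KLF1 among them. Their summed log2 level was 43.67 to 47.86 in the controls and 42.28 to 43.31 with bevacizumab, a difference that lay mainly in HBE1 and HBB. Red cells in these tumours come from the mouse host, whereas the array annotation is of human genes. Whether red cells had a part in the H2A result was not tested.

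**Figure D3:**
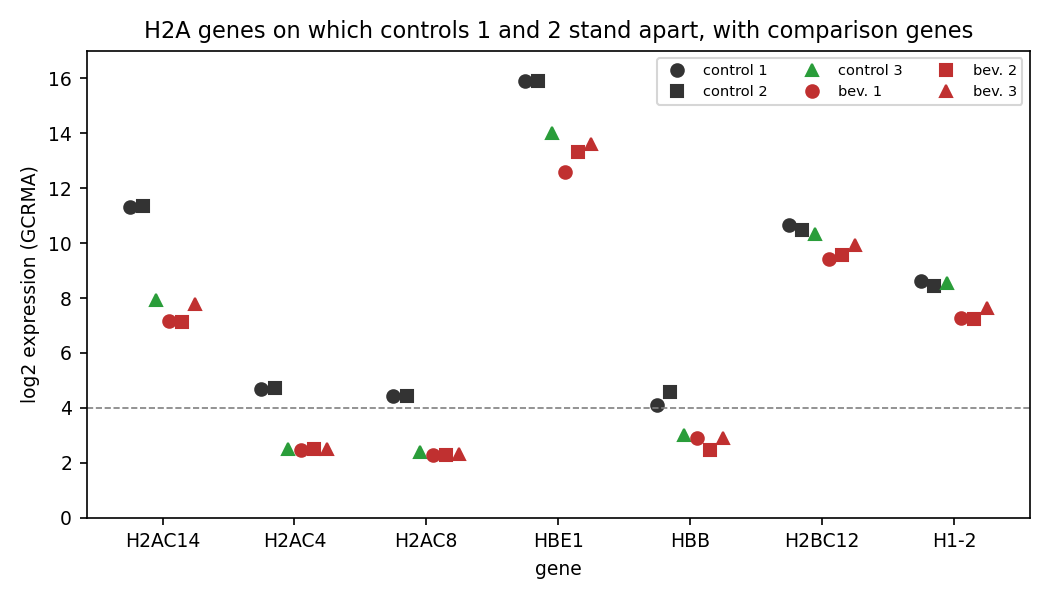
Log2 expression (vertical axis) on each of the 6 arrays for 3 H2A genes, the globin genes HBE1 and HBB, and H2BC12 and H1-2 for comparison, with the dashed line at the filter of 4. Controls 1 and 2 (black) are apart from control 3 (green) for the first 5 genes, while for H2BC12 and H1-2 the 3 controls lie together above the bevacizumab arrays (red).

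H4C11 was the only tested gene for H4, a core histone with one protein encoded by many genes. It was at 6.50, 6.33 and 6.27 in the controls and 6.05, 6.15 and 6.27 with bevacizumab. Control 3 and bevacizumab 3 met at 6.27, and the log2 fold change of -0.21 (SE 0.11) did not pass (limma adjusted p = 0.202). The probe set of H4C11 ends in _x_at as well. For H3, the partner of H4, no replication-dependent gene was tested, and H3C2, under the filter, was at 3.49, 3.81 and 3.73 in the controls and 2.82, 2.66 and 3.64 with bevacizumab. Its groups overlapped at control 1 and bevacizumab 3, and values this low were not tested.

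Grouped by transcript type, the 6 genes known to give polyadenylated transcripts (H1-2, H2AC6, H2BC4, H2BC5, H2BC12 and H2BC21) had 2 lower, 0 higher and a median of -0.30, with 3 lower and 1 higher at an unadjusted limma p under 0.05. The 6 others had 3 lower, 1 higher and a median of -1.0. Grouped by probe design, the 8 replication-dependent genes read through probe sets ending in _x_at or _s_at had 3 lower and a median of -0.76. The 4 read through sets ending in _at had 2 lower (H1-2 and H2BC12), 1 higher (H2AC25) and a median of -0.22. Neither grouping was tested.

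The tested variant genes had log2 fold changes between -0.45 and 0.65. H2AZ1 encodes H2A.Z, a variant placed beside transcription start sites. It was at 14.28, 14.37 and 14.18 in the controls and 13.92, 13.84 and 13.94 with bevacizumab. No treated array reached a control, and the means of 14.28 ± 0.09 and 13.90 ± 0.06 (SD, n = 3 each) differed by -0.38 (SE 0.09, limma adjusted p = 0.0348), or 1.30-fold. Its other probe set, at 13.74, 13.73 and 13.85 against 13.40, 13.32 and 13.40, gave -0.40 with an adjusted p of 0.029 in the limma fit over every probe set.

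MACROH2A1, which carries a large extra domain and is found in silent chromatin, was at 12.53, 12.34 and 12.62 against 12.09, 12.11 and 11.95. All treated arrays were lower, by -0.45 (SE 0.11, limma adjusted p = 0.0348), or 1.36-fold. Of its 7 probe sets, 5 were bright enough to test, and 2 of these fell in the limma fit over every probe set, the second by 0.44 (adjusted p = 0.0311). The other 3 ran from -0.37 to -0.15 and had adjusted p-values of 0.207 to 0.776. The calls for H2AZ1 (log2 fold change from -0.42 to -0.33, adjusted p from 0.0553 to 0.113) and MACROH2A1 (-0.52 to -0.39, 0.0562 to 0.112) were lost in each of the 6 limma fits that left out an array. With the mean of its 7 probe sets, MACROH2A1 differed by -0.25 (limma adjusted p = 0.233).

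H2AX, the variant phosphorylated around DNA breaks, was at 8.61, 8.61 and 8.45 in the controls and 8.10, 8.33 and 8.14 with bevacizumab. Its groups did not overlap, but the difference of -0.37 (SE 0.10) was just outside the threshold (limma adjusted p = 0.0537). H2AZ2, which encodes a second form of H2A.Z, was at 12.40, 12.29 and 12.31 against 12.25, 12.08 and 11.57. Bevacizumab 3 was lowest, the groups did not overlap, and the difference of -0.37 (SE 0.18) did not pass (limma adjusted p = 0.204). A second H2AZ2 probe set, at 11.80, 11.72 and 11.58 against 10.89, 10.92 and 10.56, was lower by 0.91 (adjusted p = 0.012 in the limma fit over every probe set), and the other 2 were not called.

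H1-10, a linker histone variant, was the only tested variant with a positive value, at 7.82, 7.71 and 7.55 in the controls and 7.82, 8.62 and 8.60 with bevacizumab. Bevacizumab 1 lay with the controls, and the difference of 0.65 (SE 0.23) did not pass (limma adjusted p = 0.101). Without bevacizumab 1 it was 0.91 and passed (limma adjusted p = 0.0121). The H3 variant gene H3-3A, which encodes H3.3, was at 3.77, 4.29 and 4.02 against 3.97, 3.49 and 3.72 on its single probe set, under the filter and with overlap. MACROH2A2 was at 2.24 on all 6 arrays, and H1-7, H1-8 and H1-9P between 2.23 and 2.26.

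**Figure D4:**
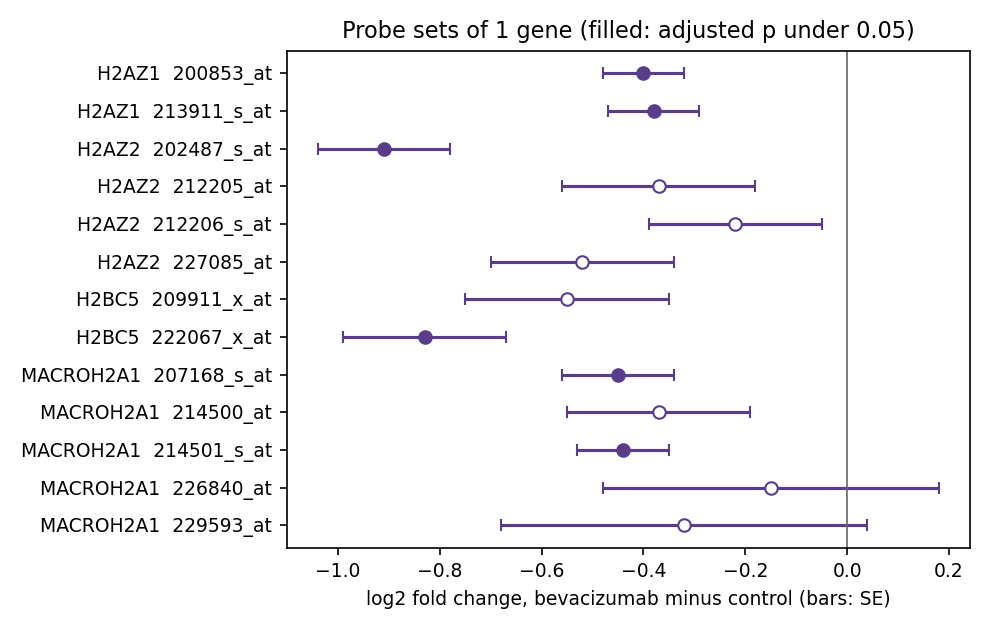
Log2 fold change with SE of each tested probe set (rows) of the 4 histone genes with several tested probe sets, filled where the adjusted limma p over all probe sets was under 0.05. Both H2AZ1 sets fell by about the same amount (0.38 and 0.40), whereas those of H2AZ2 ran from -0.91 to -0.22 and those of MACROH2A1 from -0.45 to -0.15.

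Counted as probe sets, 26 of the 77 were bright enough to test. Of these, 10 fell and 1 rose in the limma fit over all 18475 single-gene probe sets, where 1470 (7.96%) fell and 1372 rose. Several of the 26 read the same gene, so they are not separate results. Of 2 variants outside the member rule, neither passed, with 1 lower at an unadjusted limma p under 0.05. The centromeric H3 variant CENPA was at 4.84, 4.95 and 5.02 against 4.43, 4.75 and 4.18 (-0.49, SE 0.16, limma adjusted p = 0.0804). H2AJ was at 9.59, 9.48 and 8.21 against 7.95, 8.07 and 8.48, with control 3 among the treated arrays (-0.93, SE 0.39, limma adjusted p = 0.144).

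Genes that process histone mRNA were partly lower. Of 19 tested, 6 fell and 0 rose, with 10 lower and 1 higher at an unadjusted limma p under 0.05, and their median was -0.26. The genes that fell were CSTF2 and CPSF2 of the 3' cleavage machinery, LSM10 of the U7 particle that recognises histone pre-mRNA, ERI1, a nuclease that trims and degrades histone mRNA, NCBP1 of the cap-binding complex, and its partner SRRT. CSTF2 was at 7.23, 7.49 and 7.26 against 6.73, 6.64 and 6.67 (-0.65, SE 0.10, limma adjusted p = 0.0117), and LSM10 at 9.11, 9.45 and 9.39 against 8.56, 8.69 and 8.72 (-0.66, SE 0.12, limma adjusted p = 0.0171). In both, all treated arrays were below all controls. NCBP1 was at 8.40, 7.97 and 8.25 against 7.63, 7.65 and 7.34 (-0.67, SE 0.15, limma adjusted p = 0.03), and CPSF2 at 10.00, 9.90 and 10.09 against 9.62, 9.16 and 9.42 (-0.60, SE 0.14, limma adjusted p = 0.0318).

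Among the genes of this list that did not pass, SLBP, which binds the stem-loop of replication-dependent mRNAs, differed by -0.21 (SE 0.08, limma adjusted p = 0.131). NPAT, the coactivator that switches these genes on in S phase, differed by -0.29 (SE 0.10, limma adjusted p = 0.0865), and its partner CASP8AP2 by -0.41 (SE 0.13, limma adjusted p = 0.0728). The groups did not overlap for any of these 3 genes, and their unadjusted limma p-values were 0.0453, 0.0234 and 0.0175.

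Chaperones, which carry histones to and from DNA, were partly lower as well. Of 34 listed, 31 were tested, 10 fell and 0 rose, with 15 lower and 0 higher at an unadjusted limma p under 0.05, and the median was -0.23. The 10 were ASF1A, ASF1B, CHAF1A, CHAF1B and RBBP4 of H3 and H4 deposition, NASP and HAT1, which hold and acetylate new histones, DNAJC9, SUPT16H of the FACT complex, and ZNHIT1 of an H2A.Z exchange complex. ASF1A was at 11.54, 11.26 and 11.38 against 10.29, 10.23 and 10.04 (-1.21, SE 0.12, limma adjusted p = 0.00401), and NASP at 11.19, 11.12 and 11.03 against 10.39, 10.06 and 9.96 (-0.98, SE 0.13, limma adjusted p = 0.0083). Neither gene's groups overlapped.

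CHAF1A, the large subunit of the assembly factor CAF-1, was at 8.41, 8.46 and 8.35 against 7.76, 7.68 and 7.53 (-0.75, SE 0.09, limma adjusted p = 0.007). DNAJC9, a heat shock co-chaperone for H3 and H4, was at 10.66, 10.80 and 10.76 against 10.17, 10.02 and 10.05 (-0.66, SE 0.09, limma adjusted p = 0.00786). For both, controls and treated arrays were apart by more than the range within either group. Of the chaperones that did not pass, HIRA was at -0.38 (SE 0.19, limma adjusted p = 0.205), DAXX was at 0.35 (SE 0.26, limma adjusted p = 0.37) and ATRX was at -0.09 (SE 0.18, limma adjusted p = 0.754).

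**Figure D5:**
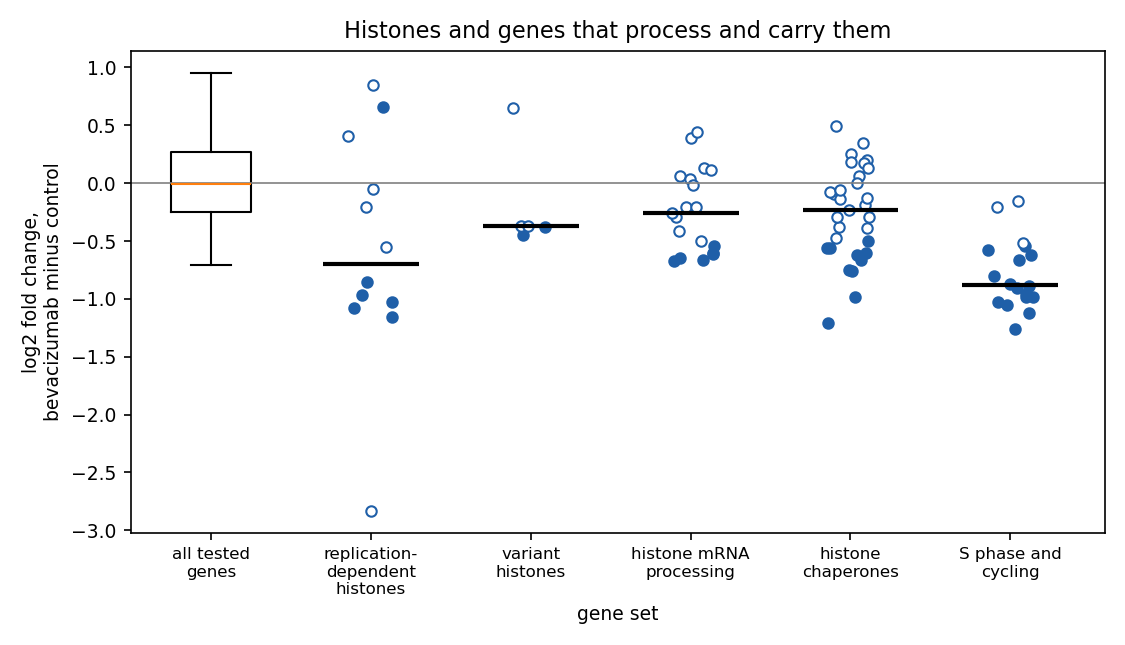
Log2 fold change (vertical axis) of each tested gene (points, filled past an adjusted limma p of 0.05) in the histone classes and in lists of genes that process or carry histones or act in S phase, with a bar at each median. The box shows all 10233 tested genes, with whiskers at their 5th and 95th percentiles. Medians are -0.70 for replication-dependent and -0.37 for variant histones, -0.26 for mRNA processing, -0.23 for chaperones and -0.88 for S phase and cycling genes.

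S phase and cycling genes were tested for comparison, since replication-dependent histone genes are expressed in that phase. Of 18, 15 fell and 0 rose, with 16 lower and 0 higher at an unadjusted limma p under 0.05, and the median was -0.88. CDC6, which licenses origins, was at 8.31, 8.11 and 8.32 against 7.08, 6.91 and 6.95 (-1.26, SE 0.10, limma adjusted p = 0.00221). MCM7 of the replicative helicase was at 10.23, 10.18 and 10.14 against 9.11, 9.18 and 9.11 (-1.05, SE 0.08, limma adjusted p = 0.00206). PCNA, the sliding clamp, was at 12.67, 12.67 and 12.71 against 11.89, 11.61 and 11.81 (-0.91, SE 0.10, limma adjusted p = 0.00482), and MCM5 at 9.37, 9.36 and 9.42 against 8.69, 8.44 and 8.39 (-0.87, SE 0.10, limma adjusted p = 0.00616). In all 4 the treated arrays lay below the controls. E2F1, TOP2A and CCNA2 did not pass.

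Of 8 glioma cell markers, 5 were tested, and 1 fell and 1 rose. NES fell by 1.18 (SE 0.15, limma adjusted p = 0.00725) and CHI3L1 rose by 1.60 (SE 0.29, limma adjusted p = 0.0174). FABP7 (1.02, limma adjusted p = 0.0634), VIM (0.12, 0.364) and CD44 (0.11, 0.325) did not pass. SOX2, OLIG2 and GFAP were under the filter. Markers of other cell types were read on the same arrays. Host cells of these tumours are mouse cells, whereas the array annotation is of human genes. A low value therefore does not show that a cell type was absent, nor a fall that its cells were lost. Of 5 mural cell markers, RGS5 fell by 2.85 (SE 0.22, limma adjusted p = 0.0022) and ACTA2 fell by 1.79 (SE 0.18, limma adjusted p = 0.00407). PDGFRB (0.30, limma adjusted p = 0.175), MCAM (0.42, 0.677) and CSPG4 (0.16, 0.538) did not pass. MCAM was at 5.82, 5.50 and 5.82 in the controls and 5.41, 5.23 and 7.75 with bevacizumab, so its positive sign rests on bevacizumab 3. The median of the 5 was 0.16, and their summed log2 level was 44.71 to 45.36 in the controls and 40.46 to 43.05 with bevacizumab. The endothelial genes CDH5, VWF and KDR were under 4 on all arrays, whereas PECAM1 was at 6.05 to 6.50 and TEK at 5.48 to 6.17 with no call for either. The summed level over these 5 markers was 19.07 to 19.31 against 19.28 to 19.92. The macrophage genes PTPRC, CD14 and CSF1R were also under 4 throughout, and AIF1 was at 4.75 to 5.19 with no call (summed over these 4 markers, 13.20 to 13.63 against 13.05 to 13.18), and all 3 measured lymphocyte markers were within 0.1 of the lowest value. The part of these cells in the histone results was not tested.

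By pattern over the 6 arrays, the tested genes most like the mean of the 12 replication-dependent histones were CALHM5 (Pearson r = 0.989), DUS3L (0.987), SMAGP (0.983), TSPAN10 (0.982) and KBTBD4 (0.981). Without H2AC14 in the mean they were OTUB1 (0.984), MRPS18B (0.983), YWHAH (0.982), BAX (0.979) and POLR2D (0.979). The lists share no gene, and with 6 arrays in 2 groups these values describe a ranking only. Of the 10 genes, CALHM5 passed the test, at -0.72 (limma adjusted p = 0.0395).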

How the data were processed

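RNA of 3 control and 3 bevacizumab tumour samples was hybridised to 1-colour Affymetrix arrays, 1 array a sample. The deposited table holds log2 values that the authors made with GCRMA, after scanning with GCOS 1.1.1.052, per the submitters' processing notes. GCRMA is a background correction that uses probe sequence, followed by normalization and a summary per probe set. The log2 scale was inferred from the values, and no scanner files were used here. No source used here names dates or batches, so no batch was tested. Array medians were 2.49 to 2.51, and 33.4% to 34.3% of probe sets per array sat at the lowest value, at which genes cannot be ranked. Precision is limited by the number of arrays.

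Of 54675 probe sets, 62 were controls, 41097 had 1 gene symbol, 1801 several and 11777 were not listed. The gene table matched 41043 single-gene sets, and 54 kept the annotation's symbol. The set with the highest mean stood for a gene. A probe set for the antisense RNA of H1-10 was set aside, and 3 members are pseudogenes (H4C10P, H2AC5P and H1-9P). Genes with a mean of at least 4 were fitted with limma 3.58.1 in R 4.3.3 (lmFit and eBayes, no covariate). Two-sided p-values received a Benjamini-Hochberg adjustment over all 10233 genes, of which 1950 passed 0.05. The fit was run on simulated data with separate noise for each gene and planted differences. Those data held no difference in RNA quality between the groups, so the run does not bear on one. Values on every array were given for variant genes, replication-dependent genes past the threshold, the 4 replication-dependent genes with the highest mean, the polyadenylated subset and up to 4 genes of each other list with the smallest p. Members and lists were chosen with earlier results of these data known, and the red blood cell list and the genes outside this rule (H2AC4, H2AC8, H4C11, H3C2 and the 2 globin genes among them) after their values were seen. Other filters, normalizations, probe set choices, a replicate block, a trend, an ACTB covariate and leaving out each array were tried.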

Additional observations from a re-analysis of the deposited data

How the results depend on the processing

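Of 259 values for single histone genes under other settings, 203 kept their direction and their side of the threshold, 51 kept the direction but no longer passed, 5 came to pass and 0 turned. The 203 include values of the 9 genes that had not passed and so had no call to lose. All 51 losses fell on the 8 genes that had passed, so 203 of 259 is not the share of calls that held. The limma count of 8 histone genes past the threshold became 1 of 56 with no filter, 4 of 7 without probe sets ending in _x_at or _s_at, and 0 of 17 with the ACTB covariate (7 at an unadjusted p under 0.05). It was 2 to 5 when an array was left out. Over all genes the count of 1950 became 598, 1226 and 24 in these settings and 558 to 2074 without an array. The replication-dependent median of -0.70 became 0.00 with no filter, where most genes lie near the lowest value, -0.22 without those probe sets and -0.41 with the covariate. The variant median of -0.37 became -0.15 with no filter and -0.29 with the covariate. The cause was not tested.

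With the titles' replicate numbers as a replicate block, limma called 3 histone genes and 904 genes in all. The titles do not state a pairing, so the numbers were not taken to pair samples. Deviations of same-numbered arrays gave r = -0.048, -0.012 and -0.053, which with 3 arrays per group cannot settle the question. The remaining settings gave 8, 9 or 11 histone calls, the last counted as probe sets. GCRMA values near the floor limit what can be said of 39 of the 56 genes.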
